A study of Mus musculus with 84 samples.

Results

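The tryptase genes Tpsb2, Tpsab1, Tpsg1 and Prss34, the carboxypeptidase gene Cpa3 and the granzyme gene Gzma were followed in IL-9-producing mucosal mast cells (MMC9s) of the mouse small intestine. They are 6 of the 55471 genes counted, were listed by name, and all 6 were found by gene symbol in every library. The mutants IL-4RaY709F, a gain of function in the alpha chain of the receptor for IL-4, and IL-4Ra-/-, its loss of function, were compared with wild type (WT), all BALB/c. For bulk RNA sequencing, ovalbumin-sensitized WT mice received bone marrow progenitors of IL-4RaY709F, IL-4Ra-/- or WT origin and then 7 oral ovalbumin challenges, 3 per week. Each genotype gave 1 library, pooled from 12 to 20 biological replicates, so the bulk comparisons have no replicate check. The labels do not state the ages of the mice or how many of the recipients' own WT mast cells were left among the sorted cells. A further 81 single WT MMC9s came from mice of an ovalbumin and alum model without the transfer, sorted as lineage-negative, IL-4-GFP-high, c-Kit+ and ST2+ cells with low β7 integrin and no IL-17RB2.

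Mast cells store proteases in granules, bound to serglycin and its heparin-like chains, and release them when IgE bound to the cell surface is cross-linked by allergen. Tryptases are trypsin-like enzymes that cut after basic residues, and carboxypeptidase A3, encoded by Cpa3, trims single residues from the C-terminal ends of peptides that other proteases have cut. In mice, Tpsb2 (mouse mast cell protease 6) and Tpsab1 (protease 7) are soluble tryptases typical of connective tissue mast cells, whereas mucosal mast cells are known mainly for the chymases of Mcpt1 and Mcpt2. Tpsg1 encodes a tryptase held in the membrane, Prss34 a protease known best from basophils, and Gzma the trypsin-like granzyme A of cytotoxic lymphocytes.

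The 4 tryptase genes lie together on chromosome 17 (GRCm38 coordinates). Prss34 (ENSMUSG00000056399) spans 25298394 to 25300165 on the plus strand, Tpsab1 (ENSMUSG00000024173) 25343245 to 25345562 on the minus strand, Tpsb2 (ENSMUSG00000033825) 25366305 to 25369098 on the plus strand and Tpsg1 (ENSMUSG00000033200) 25369273 to 25374442 on the plus strand. Within these 76.05 kb the annotation holds 9 genes, and the 4 tryptases were the 4 with at least 10 reads over the 3 bulk libraries. Tpsg1 starts 174 bases after the end of Tpsb2 and overlaps the calcium channel gene Cacna1h by 158 bases. Cpa3 (ENSMUSG00000001865) lies on chromosome 3 at 20215620 to 20242181, minus strand, and Gzma (ENSMUSG00000023132) on chromosome 13 at 113093825 to 113100981, minus strand.

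Tpsb2 and Tpsab1 are the closest pair, so the sequence that separates their reads is shown. Their annotated coding sequences had 635 identical bases among 824 aligned (77.1%), and the longest identical run was 39 bases. No 50-base word of any of the 6 genes' annotated transcripts occurred in the transcripts of another gene. The words were compared in transcript direction only, so overlap with a gene on the opposite strand was not searched. The 90-base stretch below starts at coding base 18 of Tpsb2 and coding base 120 of Tpsab1 (GENCODE M21, 5′ to 3′), and capitals mark the 26 bases that differ:
Tpsb2: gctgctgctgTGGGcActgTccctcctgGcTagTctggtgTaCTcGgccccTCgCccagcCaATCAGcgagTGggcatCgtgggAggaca
Tpsab1: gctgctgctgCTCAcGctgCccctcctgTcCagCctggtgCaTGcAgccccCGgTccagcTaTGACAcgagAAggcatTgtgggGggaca
These are reference sequences of the C57BL/6 strain, which is known to carry a splice-site change in Tpsab1 and to lack its protein; the mice here were BALB/c.

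RefSeq promoter entries (GRCm38.p6) were matched for Cpa3, Tpsg1, Prss34 and Gzma. The 250 bases before the start are printed for Cpa3, within 1.5-fold between any 2 libraries, and for Prss34 and Gzma, which had the largest ratios. Capitals mark AGATAA, the kind of motif that GATA factors bind, searched on both strands. The 3 windows are written 5′ to 3′ in the direction of the gene: Cpa3 from chr3:20242182-20242431 (minus strand), Prss34 from chr17:25298144-25298393 (plus strand) and Gzma from chr13:113100982-113101231 (minus strand).
Cpa3: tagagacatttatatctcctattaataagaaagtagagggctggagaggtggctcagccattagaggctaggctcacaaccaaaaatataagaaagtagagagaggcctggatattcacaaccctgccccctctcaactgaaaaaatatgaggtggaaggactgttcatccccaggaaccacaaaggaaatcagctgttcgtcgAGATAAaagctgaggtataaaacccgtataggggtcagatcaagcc
Prss34: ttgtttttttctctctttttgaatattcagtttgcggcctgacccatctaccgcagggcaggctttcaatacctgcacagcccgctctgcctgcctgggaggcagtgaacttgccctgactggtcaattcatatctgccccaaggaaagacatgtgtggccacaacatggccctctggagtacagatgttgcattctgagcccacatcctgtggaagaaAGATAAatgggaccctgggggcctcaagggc
Gzma: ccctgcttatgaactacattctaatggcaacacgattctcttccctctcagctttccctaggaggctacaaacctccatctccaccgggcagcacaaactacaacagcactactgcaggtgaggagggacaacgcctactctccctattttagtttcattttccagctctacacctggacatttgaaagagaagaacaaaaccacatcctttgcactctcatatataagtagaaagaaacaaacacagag
AGATAA stood 46 bases before the start of Cpa3 and 31 bases before that of Prss34, and these letters were in neither the Gzma nor the Tpsg1 window. AGATAA occurred in 9.99% of 32851 promoter windows of the same length. Other forms of the motif were not searched. The Tpsg1 window, not printed here, holds TGATAA, which differs from AGATAA in the first base. The E-box letters CANNTG (both strands, 66.2% of promoters) matched 2 times before Cpa3, 2 times before Prss34, 3 times before Gzma and not before Tpsg1. TGANTCA, a motif of the AP-1 type, is in 6.75% of promoters and matched none of the 4 windows. Nor did the STAT-type motif TTCNNNGAA (7.02% of promoters) or its STAT6-type form with 1 more base in the spacer (5.85%). These are matches of letters only and were not tested as binding sites.

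The bulk libraries held 2521791 reads in genes for IL-4RaY709F, 2330628 for IL-4Ra-/- and 2299793 for WT, and the single cells kept held 163596 to 2210211 (median 1209300). Il4ra had 1831 reads in IL-4RaY709F, 350 in IL-4Ra-/- and 806 in WT; the counts are per gene and do not show which exons were read. All 8 mast cell markers had reads in each bulk library, summing to 52324, 35380 and 37936 CPM (reads of a gene scaled to 1000000 gene reads) in IL-4RaY709F, IL-4Ra-/- and WT. The markers did not move together. For IL-4RaY709F over WT the log2 ratio was -0.13 for Kit and -0.11 for Gata2. The others ranged from 0.34 (Fcer1a) to 1.67 (Cma1). Markers of other cells differed as well: 10 macrophage markers summed to 90.7 CPM in IL-4RaY709F, 575 in IL-4Ra-/- and 173 in WT, 8 plasma cell markers to 3021, 13397 and 6578 CPM, and 10 epithelial markers to 28.8, 102 and 27.1 CPM in the same order. The part of these markers in the protease results was not tested. Bulk CPM are scaled by the trimmed mean of M values (TMM), bulk intervals are 95% and cover counting error only, and p-values were not computed. In a bulk library, fewer cells of a type and less RNA per cell cannot be told apart.

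Cpa3 had the most reads of the 6 genes, and no 2 libraries differed by 1.5-fold under any scaling tried. It had 19690 CPM (45794 reads) in IL-4RaY709F, 15046 CPM (38262 reads) in IL-4Ra-/- and 14961 CPM (34193 reads) in WT. The IL-4RaY709F library was thus the highest, and the libraries of IL-4Ra-/- and WT lay within counting error of each other with TMM scaling, though not with total reads (log2 ratio 0.14). The TMM log2 ratio was 0.40 for IL-4RaY709F over WT (interval 0.38 to 0.42), 0.01 for IL-4Ra-/- over WT (-0.01 to 0.03) and 0.39 for IL-4RaY709F over IL-4Ra-/- (0.37 to 0.41). Among the 456 genes with 1000 reads or more in IL-4RaY709F or WT, 14.5% had a ratio at least as high as that of Cpa3. For IL-4RaY709F over IL-4Ra-/-, 212 of 461 such genes did, and their median of 0.34 was close to the 0.39 of Cpa3. With total reads the Cpa3 ratio was 0.29 for IL-4RaY709F over WT and 0.15 for IL-4RaY709F over IL-4Ra-/-. The microRNA gene Mir7007, annotated within Cpa3, had 9, 9 and 2 reads in IL-4RaY709F, IL-4Ra-/- and WT.

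Tpsb2, the main soluble tryptase, was graded across the genotypes. It stood at 6867 CPM (15970 reads) in IL-4RaY709F, 2100 CPM (5341 reads) in IL-4Ra-/- and 3522 CPM (8050 reads) in WT. The 3 libraries did not overlap within counting error, and IL-4RaY709F was the highest and IL-4Ra-/- the lowest. Its log2 ratio was 0.96 for IL-4RaY709F over WT (0.92 to 1.002), just short of the 2-fold that the size rule asks for. Scaled to Kit reads instead, this ratio was 1.09 and passed. For IL-4Ra-/- over WT it was -0.75 (-0.80 to -0.70), also short of it. Between the mutants Tpsb2 was 3.27-fold higher in IL-4RaY709F than in IL-4Ra-/- (3.17 to 3.37) and passed the rule, as it did under every scaling tried.

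Tpsab1, the other soluble tryptase, moved less than Tpsb2. Its level was 569 CPM (1324 reads) in IL-4RaY709F, 399 CPM (1014 reads) in IL-4Ra-/- and 438 CPM (1002 reads) in WT. The log2 ratio was 0.38 for IL-4RaY709F over WT (0.26 to 0.50) and -0.14 for IL-4Ra-/- over WT (-0.26 to -0.01). Neither passed the rule, and scaling by total reads put the second at 0.00. The balance within the pair can be read inside each library, where scaling does not enter. Tpsb2 took 92.3% of the reads of the 2 genes in IL-4RaY709F (91.9% to 92.7%, exact Clopper-Pearson interval), 84.0% in IL-4Ra-/- (83.1% to 84.9%) and 88.9% in WT (88.3% to 89.6%). These 3 intervals did not overlap, so the 2 tryptases did not change by the same factor between the libraries.

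Tpsg1, the membrane-held tryptase, was scarce. It had 64 reads (27.5 CPM, 21.2 to 35.1) in IL-4RaY709F, 49 reads (19.3 CPM, 14.3 to 25.5) in IL-4Ra-/- and 33 reads (14.4 CPM, 9.94 to 20.3) in WT. The intervals of neighbouring libraries overlapped, and the log2 ratio of 0.93 for IL-4RaY709F over WT had a wide interval (0.30 to 1.58) and did not reach 2-fold. Scaled to Kit reads it was 1.06 and passed. Its reads came to 0.401% of the Tpsb2 reads in IL-4RaY709F, 0.917% in IL-4Ra-/- and 0.410% in WT. The overlapping gene Cacna1h had 24, 42 and 27 reads in IL-4RaY709F, IL-4Ra-/- and WT; no source used here gives a strand setting for the counting, so reads of the shared bases cannot be told apart.

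Prss34 changed in both directions. It had 265 reads (114 CPM) in IL-4RaY709F, 32 reads (12.6 CPM) in IL-4Ra-/- and 101 reads (44.2 CPM) in WT. It was 2.58-fold higher in IL-4RaY709F than in WT (2.04 to 3.28) and 3.51-fold lower in IL-4Ra-/- than in WT (2.34 to 5.40), and the mutants differed 9.05-fold (6.26 to 13.5). These 3 ratios passed the rule. Among 2003 genes with 200 to 1000 reads in the larger of the IL-4RaY709F and WT libraries, 0.649% had a ratio at least as high as that of Prss34. The 5 basophil markers, none at 0, summed to 347 CPM in IL-4RaY709F, 214 in IL-4Ra-/- and 220 in WT, so that sum was also highest in IL-4RaY709F. Of them the basophil protease gene Mcpt8 had 30 reads in IL-4RaY709F, 41 in IL-4Ra-/- and 19 in WT, and Cd200r3, a receptor gene, 646, 407 and 350. The 3 that were rare in the single cells (Itga2, Cebpa and Il3ra, each detected in under 5%) summed to 55.9, 37.8 and 58.2 CPM in the same order. Those 3 together were thus not highest in IL-4RaY709F. The part of these markers in the Prss34 result was not tested.

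Gzma was nearly absent outside the IL-4RaY709F library. It had 56 reads (24.1 CPM, 18.2 to 31.3) in IL-4RaY709F, 3 reads in IL-4Ra-/- and 1 read in WT. A level of 3 reads, the limit that a count of 0 allows, corresponds to 1.18 CPM in IL-4Ra-/- and 1.31 CPM in WT, so in neither was Gzma above that limit. The log2 ratio for IL-4RaY709F over WT was 5.78 with a wide interval (3.24 to 11.1), and over IL-4Ra-/- it was 4.35 (2.73 to 6.67); both passed the rule. Of 15 markers of cytotoxic lymphocytes, 1 had enough reads for the rule, Cd3e, and it was not called. In IL-4RaY709F 9 of the 15 were at 0, among them Gzmk, Klrd1, Klrk1, Eomes, Cd8a and Trac. In IL-4Ra-/- and in WT 6 of the 15 were at 0, among them Gzmk, Klrd1, Klrb1c and Eomes in each. The 12 of these markers that were rare in the single cells (detected in under 5%) had 5 reads in all in IL-4RaY709F, 18 in IL-4Ra-/- and 8 in WT. The whole list summed to 211 CPM in IL-4RaY709F, 288 in IL-4Ra-/- and 169 in WT, most of it Cd3e, with 456, 671 and 349 reads. The part of these markers in the Gzma result was not tested.

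**Figure D1:**
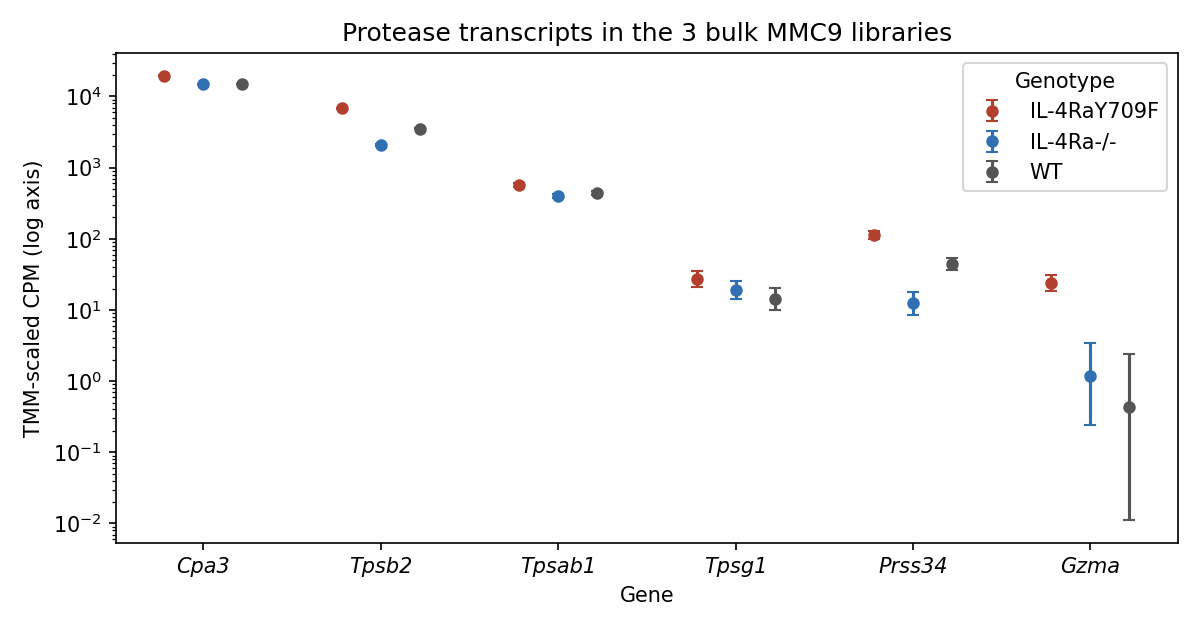
TMM-scaled CPM of the 6 genes (x axis) on a log axis in the IL-4RaY709F, IL-4Ra-/- and WT bulk libraries, 1 point per library, with 95% counting intervals as bars. Cpa3 lies between 14961 and 19690 CPM in all 3, whereas Prss34 and Gzma are spread most: Gzma has 24.1 CPM in IL-4RaY709F and 0.438 CPM in WT.

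The size rule asked for at least 50 reads in the larger library, at least a 2-fold ratio and an interval that leaves out a ratio of 1. For IL-4RaY709F over WT all 6 genes had enough reads and 2, Prss34 and Gzma, were higher by this rule, where 1.68% of the 5964 genes tested were higher and 0.771% lower (2.45% in either direction). Tpsg1 and Gzma reached 50 reads in the IL-4RaY709F library alone, so which genes were tested depended on the level there. The median log2 ratio of all 6 was 0.95, beside 0.02 for all genes tested and 0.10 for the 456 genes with 1000 reads or more. For IL-4Ra-/- over WT 4 of the 6 had enough reads and 1, Prss34, was lower, where 1.3% of 6246 genes tested were lower and 2.43% higher (3.73% in either direction). The median of all 6 was -0.06 (-0.14 without Gzma, which had too few reads in both libraries), beside -0.08 for all genes tested and -0.24 for the 420 genes with 1000 reads or more. These 2 comparisons share the WT library. For IL-4RaY709F over IL-4Ra-/- 3 of 6, Tpsb2, Prss34 and Gzma, were higher, where 4.62% of 6319 genes tested were higher and 3.5% lower (8.12% in either direction). The median of the 6 was 1.11 (0.51 without Gzma), beside 0.09 for all genes and 0.34 for the 461 genes with 1000 reads or more.

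**Figure D2:**
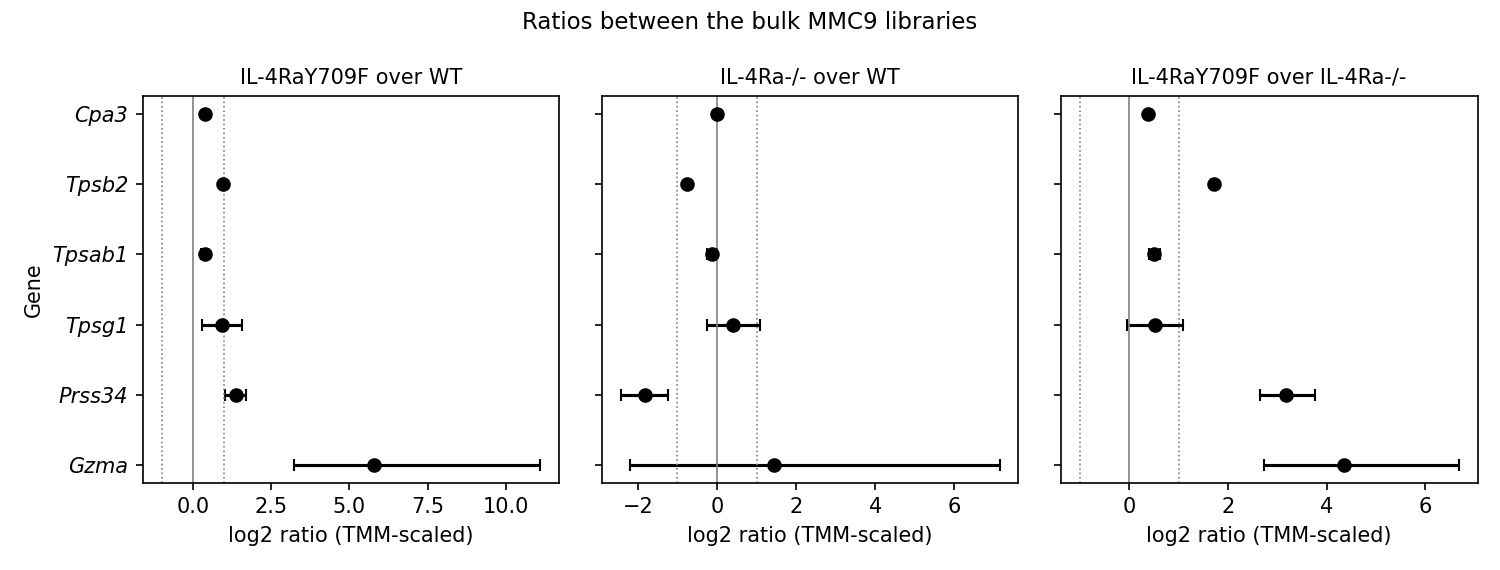
Log2 ratio (x axis, TMM-scaled, its own range in each panel) of each gene between pairs of bulk libraries, with 95% counting intervals as bars, a solid line at 0 and dotted lines at 2-fold. Prss34 stands at 1.37 for IL-4RaY709F over WT and at -1.81 for IL-4Ra-/- over WT, while Cpa3 stays within 0.40 of 0 in every panel.

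Per kilobase of exon, the order of the levels differed between the libraries only among the scarce genes. In each library Cpa3 came first, with 12979 CPM per kb in IL-4RaY709F, 9919 in IL-4Ra-/- and 9862 in WT. Tpsb2 followed with 4308, 1318 and 2210 CPM per kb, and Tpsab1 with 272, 190 and 209, in the same order of genotypes. Below them in IL-4RaY709F came Prss34 (93.4), Gzma (23.9, 18.1 to 31.1) and Tpsg1 (19.8, 15.3 to 25.3); Gzma and Tpsg1 were not apart. In IL-4Ra-/- Tpsg1 (13.9, 10.3 to 18.3) and Prss34 (10.3, 7.06 to 14.6) were not apart either. In WT Prss34 (36.2) lay above Tpsg1 (10.4), and Gzma (0.435) was lowest.

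Genes related to the 6 by position, family or function were examined as fixed lists. The 9 further serine protease genes near the tryptases on chromosome 17 had 1 read in all in IL-4RaY709F, 4 in IL-4Ra-/- and 4 in WT, and none had enough reads for the rule. Of 14 other carboxypeptidase genes 1 had enough, Cpd, a carboxypeptidase of the trans-Golgi network, with 213, 245 and 197 reads in IL-4RaY709F, IL-4Ra-/- and WT and no call in any comparison. Cpb1, a pancreatic carboxypeptidase, had 12, 5 and 14 reads. Among 10 other granzyme and perforin genes only Gzmb, the granzyme B gene, had enough reads, and it was higher in IL-4RaY709F than in WT (log2 1.56) and than in IL-4Ra-/- (1.68). Of the 5 tested of 8 chymase-type proteases 1 was called, the connective tissue chymase Cma1, higher in IL-4RaY709F than in WT (1.67) and than in IL-4Ra-/- (2.28). Mcpt1, Mcpt2 and Mcpt4 stood at 0.59, 0.80 and 0.63 for IL-4RaY709F over WT.

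Of 18 genes that store or process granule proteases, 13 were tested for IL-4RaY709F over WT and 1 was higher, Xylt1 (1.53), which starts the sugar chains of serglycin. For IL-4Ra-/- over WT 14 were tested, where Ext1, which builds heparan chains, was lower (-1.002) and the cathepsin gene Ctss higher (1.84). Between IL-4RaY709F and IL-4Ra-/- Xylt1 (1.70), Ext1 (1.19) and Ctse (1.02), the cathepsin E gene, were higher and Ctss (-2.50) lower. Ctss had 29 reads in IL-4RaY709F, 179 in IL-4Ra-/- and 45 in WT, and was among the genes of this list that were rare in the single cells. Like the summed macrophage markers, Ctss was highest in IL-4Ra-/- and lowest in IL-4RaY709F. The part of other cells in the Ctss result was not tested. Serglycin itself, Srgn, had ratios of 0.37 and -0.29 over WT in IL-4RaY709F and IL-4Ra-/-, and Ctsc, whose product activates granule serine proteases, 0.34 and -0.18.

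All 14 listed regulators of mast cell protease genes were tested. Batf (1.60) and Irf4 (1.97), partner transcription factors, were higher in IL-4RaY709F than in WT, and Batf (-1.55) was lower in IL-4Ra-/- than in WT. Between IL-4RaY709F and IL-4Ra-/-, Batf (3.15), Irf4 (2.49) and Stat5a (1.46) were higher. The mast cell factors Gata2 and Mitf were not called, with -0.11 and -0.24 for IL-4RaY709F over WT and -0.19 and -0.03 for IL-4Ra-/- over WT.

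In the single cells, 80 of 81 cells had at least 10000 reads in genes and were kept. Detection required 10 reads of a gene. Each cell is a library of its own, the labels name no animal, and the cells therefore count as 1 sample. All 8 mast cell markers were detected in 76 to 80 of the 80 cells. Cell 46 was the lowest for Cpa3 at 40.8 CPM, with 6.43 of Kit and 9.65 of Fcer1a, where the medians over cells were 16396, 1734 and 5540 CPM. Cells 37, 2 and 79 were also far below these medians. They had Cpa3 at 187, 218 and 304 CPM, Kit at 78.4, 543 and 53.1 and Fcer1a at 80.3, 61.8 and 101.

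The 6 genes ranged from one present in each cell to ones present in a few. Cpa3 was detected in 80 of 80 cells (95.5% to 100%, exact Clopper-Pearson 95% interval), from 40.8 CPM through a median of 16396 to 34328. In 76 cells it had at least 1000 CPM. With cells thinned to 100000 reads Cpa3 was detected in 98.75% of them. Tpsb2 was detected in 59 cells (73.75%, 62.7% to 83.0%), from 0 through a median of 420 to 53964 CPM. It was thus much more uneven than Cpa3: 33 cells had under 100 CPM, 12 had 100 to 1000, and 35 had 1000 or more, of which 14 had at least 10000. Tpsab1 was detected in 23 cells (28.75%, 19.2% to 39.95%), with a median of 1.87 CPM and a highest cell of 5887. Prss34 was detected in 12 cells (15%, 7.998% to 24.7%), Tpsg1 in 7 (8.75%, 3.59% to 17.2%) and Gzma in 6 (7.5%, 2.80% to 15.6%).

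**Figure D3:**
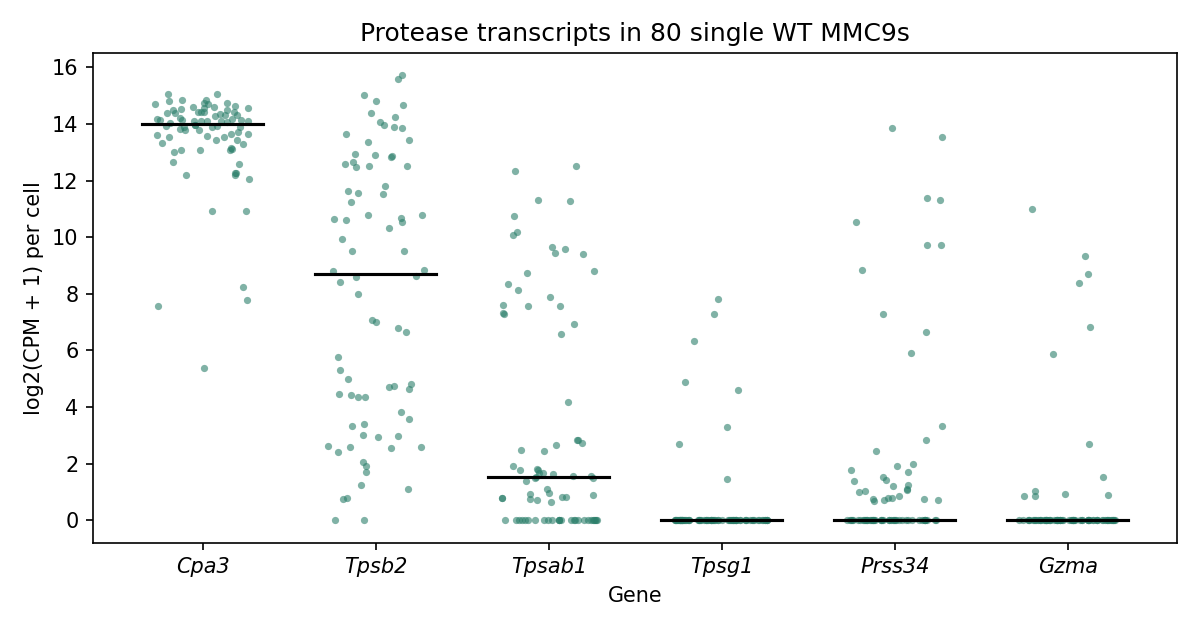
Level of each gene (x axis) in 80 single WT MMC9s as log2(CPM + 1), 1 point per cell with a random sideways shift, and a black line at the median over cells. Cpa3 fills a narrow band near its median of 16396 CPM except in a few cells, Tpsb2 spans the whole axis up to 53964 CPM, and the medians of Tpsg1, Prss34 and Gzma are at 0.

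For the scarce transcripts, single cells held a large share of the reads. The highest cell held 3.28% of all Cpa3 reads, 12.0% of Tpsb2, 24.9% of Tpsab1, 40.1% of Prss34, 41.5% of Tpsg1 and 60.3% of Gzma. Prss34 had 14961 CPM in cell 66 and 11974 CPM in cell 3, while 45 cells had no Prss34 read at all. Gzma had 2049 CPM in cell 44, 647 in cell 21, 418 in cell 5, 330 in cell 13, 114 in cell 18 and 57.8 in cell 10, and 67 cells had none.

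Levels in the summed cells and in the WT bulk library were set side by side, although their models differ. Cpa3 had 17322 CPM in the cells and 14961 in bulk, Tpsb2 5389 and 3522, and Tpsab1 402 and 438. Without the cell highest in each, these were 17162, 4802 and 307 CPM, so Cpa3 and Tpsb2 lay above the bulk level and Tpsab1 below it either way. Prss34 was higher in the cells, at 489 CPM against 44.2 in bulk, and stood at 297 CPM without cell 66. Gzma had 57.3 CPM against 0.438, and 23.2 without cell 44. Tpsg1 had 6.62 CPM against 14.4, and 3.92 without cell 41, the cell with the most Tpsg1 reads.

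Cells differed in how many of the 6 they carried. Of the 80 cells 17 had 1 gene detected, 32 had 2, 20 had 3, 9 had 4 and 2 had 5. Tpsb2 and Tpsab1 were nested: 23 cells had both, 36 had Tpsb2 alone, none had Tpsab1 alone and 21 had neither. Where either was detected, Tpsb2 took a median of 99.2% of their reads (14.1% to 100%), and in 6 of 59 cells Tpsab1 had more reads than Tpsb2. Cell 3, with the most Tpsb2, had 53964 CPM of it and 95.3 CPM of Tpsab1, whereas cell 63 had 3149 CPM of Tpsb2 and 5142 CPM of Tpsab1. All 7 cells with Tpsg1 also had Tpsb2 (985 to 33434 CPM) and 5 of them had Tpsab1.

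**Figure D4:**
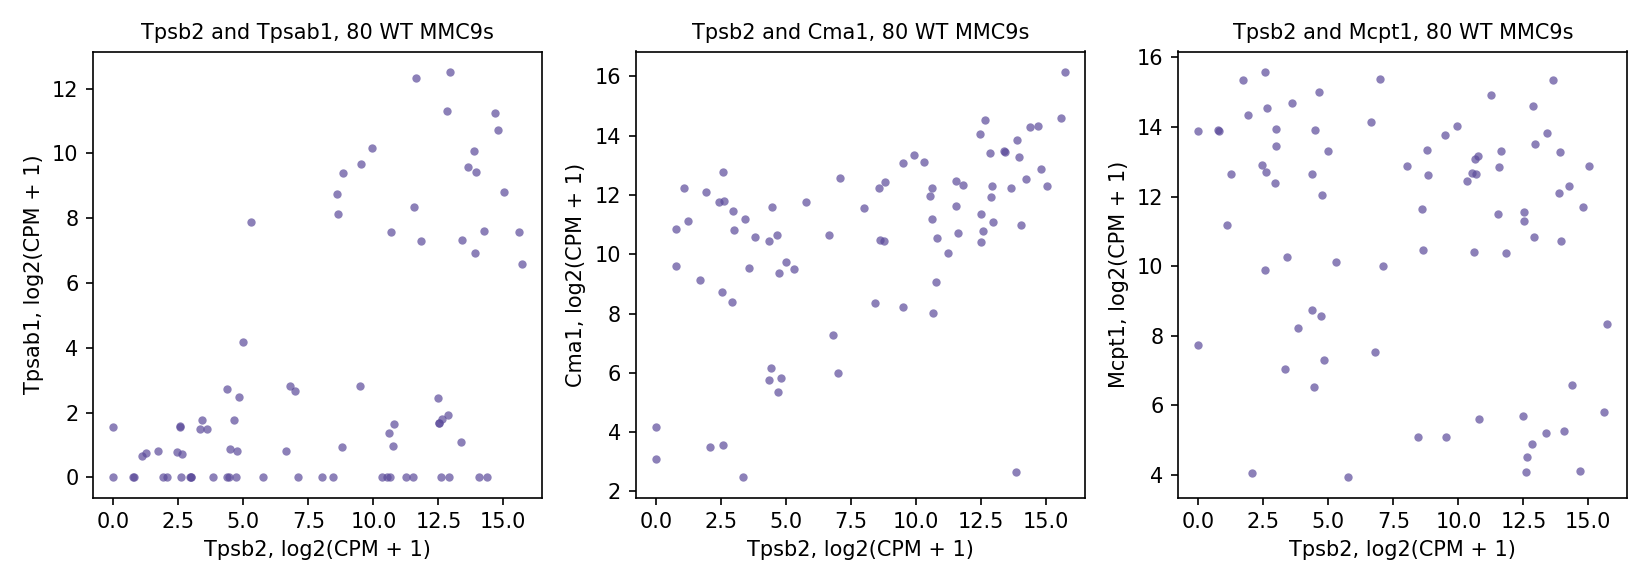
Tpsb2 (x axis) against Tpsab1, Cma1 and Mcpt1 (y axes) in 80 single WT MMC9s, as log2(CPM + 1), 1 point per cell. Cells with high Tpsab1 lie among those with Tpsb2, Cma1 is higher where Tpsb2 is higher (Spearman rho 0.56), and Mcpt1 is not (rho -0.24).

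Across the 80 cells, Tpsb2 went more with Cma1 (Spearman rho of CPM 0.56) than with Mcpt4 (0.18) or the mucosal chymases Mcpt1 (-0.24) and Mcpt2 (-0.11). Mcpt4 itself had a rho of 0.48 with Mcpt1, so the contrast holds for Cma1 and not for every other chymase. Tpsb2 had a rho of 0.49 with Tpsab1, 0.37 with Tpsg1 and 0.21 with Cpa3. Cpa3 also had its highest rho among these proteases with Cma1 (0.50), beside 0.15 with Mcpt4 and 0.03 with Mcpt1. These values describe cells of 1 sample that share a sort, and are weak where one gene is at 0 in most cells. Depth per cell had a rho of 0.32 with Cpa3 and of 0.20 or less with the others. Without cell 46 the rho of Cpa3 with Tpsb2 was 0.18, with the low cells 37, 2 and 79 still included.

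**Figure D5:**
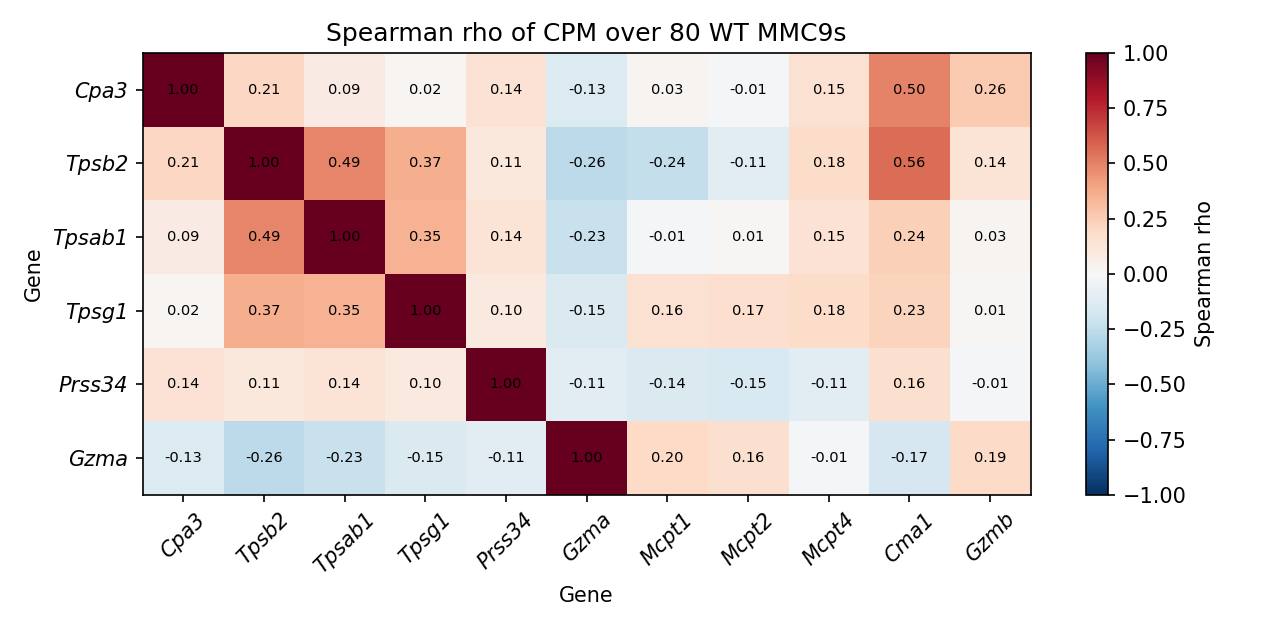
Spearman rho of CPM over 80 WT MMC9s between the 6 genes (rows) and the 6 genes with 5 further granule proteases (columns), blue for negative and red for positive. The highest values off the diagonal are those of Tpsb2 with Cma1 (0.56), Cpa3 with Cma1 (0.50) and Tpsb2 with Tpsab1 (0.49).

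Among 3625 genes detected in 20 cells or more, those most like Cpa3 were Fcer1a, the IgE-binding chain of the IgE receptor (rho 0.65), Fxyd5 (0.61), Pla2g7, a phospholipase (0.54), Cma1 (0.50) and Tyrobp, a signalling adaptor (0.49). Those most like Tpsb2 were Cma1 (0.56), Laptm5, a lysosomal membrane protein (0.54), Gm48942 (0.50), Tpsab1 (0.49) and Itm2b (0.48). For Tpsab1 they were Tpsb2 (0.49), Pilrb2 (0.41), Laptm5 (0.38), Errfi1 (0.37) and Gas7 (0.35). Tpsb2 and Tpsab1 thus appeared on each other's lists, over the same 80 cells.

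The cells with Prss34 or Gzma were looked at 1 by 1 for markers of other cells. The 12 Prss34 cells had Kit, Fcer1a, Hdc, Gata2, Mcpt1 and Cma1 detected in 12 of 12, and Ms4a2 and Il1rl1 in 11. These counts include low levels. Mcpt1 ranged from 14.3 to 26276.5 CPM in the 12, beside a median of 4697 over all cells. It was at 16.4 CPM in cell 66, the cell with the most Prss34. Cell 46 had Kit and Gata2 at 6.43 CPM and Cma1 at 10.2. Of the basophil markers Mcpt8 was detected in 4 of the 12 cells (17 of the other 68), at 47.2 CPM or less. Cd200r3 was detected in 9 (21 of 68), at up to 1620 CPM, and Itga2 in 1 (2 of 68), at 334 CPM. Cebpa was detected in none (0 of 68) and Il3ra in none (3 of 68). One of the 12 was cell 46, with 58.98 CPM of Prss34, and without it Prss34 was detected in 11 of 79 cells. Tpsb2 was detected with Prss34 in 11 of the 12 cells and Tpsab1 in 8.

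The 6 cells with Gzma had Cpa3 at 4723 to 24998 CPM and Tpsb2 detected in 3. Tpsab1, Tpsg1 and Prss34 were detected in none of them, but these genes were found in only 23, 7 and 12 of all 80 cells, so few shared cells could be seen. In them 7 of the 8 mast cell markers were detected in 6 of 6 and Kit in 5. Of the 7, Hdc ranged from 18.9 to 13779.5 CPM, beside a median of 7742 over all cells. Of 15 cytotoxic lymphocyte markers, 11 were detected in none of the 6 and in 0 or 1 of the other 74 cells, including Prf1, Gzmk, Klrd1, Eomes, Tbx21, Cd3g, Cd8a and Ccl5. The other 4 were found in a larger share of the Gzma cells than of the rest. Nkg7 was detected in 4 (11 of the other 74 cells), Ncr1 in 4 (10 of 74), Cd3e in 5 (25 of 74) and Klrb1c in 1 (0 of 74). Mcpt8 was at 5682, 2659, 1422 and 115 CPM in cells 10, 44, 5 and 18, and at 0.974 CPM or less in cells 21 and 13. It was also high in cells where Gzma was not detected, such as cell 22 (4716 CPM) and cell 61 (4006 CPM). The other basophil markers were not counted in the Gzma cells. With 6 cells, none of these counts was tested.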

How the data were processed

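Bulk RNA of sorted MMC9s (1 pooled library per genotype) and 81 single WT MMC9s were sequenced. The deposited table holds raw counts, whole numbers of reads for each gene, in bulk and cells alike, although the design text speaks of RPKM for the cells; HISAT, featureCounts and Subread 2.0.0 and the builds mm9 and GRCm38 are named in the submitters' processing notes. The gene coordinates in the deposited table matched GRCm38 (GENCODE M21) for all 6 members. No source used here gives the read length, the strand setting or the handling of reads with several matches; without strand, overlapping genes cannot be told apart.

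From the deposited counts, CPM were scaled by TMM over all genes of the 3 bulk libraries (edgeR 4.0.16, R 4.3.3), and log2 ratios got exact conditional binomial 95% intervals (scipy 1.17.1). With 1 library per genotype no test across libraries was possible, so a size rule was used: 50 reads in the larger library, 2-fold, and an interval that leaves out 1. The rule was checked on simulated data. DESeq2 1.42.0 size factors were an alternative only. Single cells with 10000 gene reads were kept, and a gene was detected at 10 reads. Doublets were not called. PCR duplicates are not independent molecules, so intervals cover counting error only.

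The members and lists were chosen with earlier results of these data known. Genes named are the members; from each list those past the size rule, else up to 3 with the most reads; and for members detected in 20 cells or more, the 5 genes with the highest rho.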

Additional observations from a re-analysis of the deposited data

Results flagged for a closer look

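The single WT cell left out for its depth (1225 gene reads) still had 12 reads of Cpa3, with 1 read each of Tpsb2 and Tpsab1. It was flagged because it holds signal of a member in data that no comparison used.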

How the results depend on the processing

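No member ratio changed its side of the threshold with total reads, DESeq2 size factors or TMM without immunoglobulin and mitochondrial genes, or with Tpsb2 and Tpsab1 summed or no read minimum, in any of the 3 comparisons. Total reads moved all genes by -0.11, 0.13 and -0.24 log2 (IL-4RaY709F over WT, IL-4Ra-/- over WT, IL-4RaY709F over IL-4Ra-/-). Scaling to Kit reads, chosen after seeing the data, called 4 members for IL-4RaY709F over WT, adding Tpsb2 (1.09) and Tpsg1 (1.06). Cpa3 for IL-4Ra-/- over WT was 0.14 with total reads and -0.01 scaled to Kit reads. A 1.5-fold threshold called the same 4 there, and 2 for IL-4Ra-/- over WT, adding Tpsb2. Detection at 1 read gave 97.5% of cells for Tpsb2, 67.5% for Tpsab1, 43.75% for Prss34 and 16.25% for Gzma; Tpsb2 was at 60% with 50 reads and at 57.5% with cells thinned to 100000 reads. The Cpa3 and Tpsb2 correlation was 0.31 as Pearson r of log2(CPM + 1). Leaving out a library would leave a genotype empty and was not run. No paired analysis was possible because each genotype has 1 library. Low bulk counts limit the ratios of Gzma (1 read in WT), Prss34 (32 in IL-4Ra-/-) and Tpsg1 (33 in WT).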
